A study of Mus musculus with 32 samples.

Results

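Total RNA of mouse embryos was measured on either side of the first cleavage, and the comparison described here sets early 2-cell embryos against zygotes in the DMSO arm of the study. It rests on 4 of the 32 samples of the series, 2 zygote libraries and 2 early 2-cell libraries, which were chosen by their stage and treatment labels and not by any measured value. The embryos were wild type and came from in vitro fertilization of B6D2F1/J eggs with B6D2F1/J sperm, taken from mice of 6 to 8 weeks, and they were cultured in KSOM, a medium for preimplantation embryos. DMSO was the solvent of A-485, an inhibitor of the acetyltransferases CBP and p300 that other embryos of the study received between 4 and 20 h after insemination, so that all 4 libraries carry the solvent and no embryo without it enters the comparison. The labels give neither the number of embryos in a library nor whether replicates came from separate collections, and p-values therefore measure only the spread between these libraries, which may be technical. Another 4 libraries of late 2-cell DMSO embryos are set beside these levels without a test.

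A newly fertilized mouse egg transcribes little and lives on RNA and protein that the oocyte stored while it grew. Its genome is switched on in steps, a weak minor wave of zygotic genome activation (ZGA) that runs from the late zygote into the early 2-cell embryo and a major wave at the late 2-cell stage, while maternal RNAs are deadenylated and degraded. Genes of the early wave are known to include multicopy families such as Zscan4, Tdpoz, Usp17l and Tcstv, many of them confined to rodents. The library kit reverse transcribes RNA from random primers and depletes ribosomal sequence later, so a transcript needs no poly(A) tail to be counted.

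The zygote libraries held 30123666 and 29076477 expected counts, the read counts that RSEM divides among genes, and the early 2-cell libraries 21496069 and 21900799. An FPKM (fragments per kilobase of transcript, scaled to library size) of at least 1 was reached by 11661 and 11607 genes in zygotes and by 12233 and 12457 in early 2-cell embryos. The make-up of the libraries differed between the stages. Protein-coding genes of the nucleus took 89.2% and 89.4% of the counts in zygotes and 78.2% and 78.7% in early 2-cell embryos, mitochondrial ribosomal RNA took 3.93% and 3.58% against 8.56% and 8.26%, and 7SL RNA, the RNA of the signal recognition particle, took 1.67% and 1.87% against 4.58% and 4.6%. Every level here is a share of the RNA of its library. Because the samples are bulk RNA with no added standard, fewer cells carrying a transcript and less of it per cell cannot be told apart, nor can a rise of one RNA and a fall of all others.

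Most stage markers went with the labels. Gdf9, an oocyte growth factor, stood at 231 and 204 FPKM in zygotes and 92.5 and 83.8 in early 2-cell embryos. Nlrp5, a maternal-effect gene of the subcortical complex described later, stood at 306 and 336 against 61.5 and 59. The egg markers Zp3, Ooep, Mos and H1foo were lower as well. Bmp15 and Btg4, also egg markers, were not called (log2 fold change -0.08 ± 0.07 and 0.59 ± 0.06, SE). The 2-cell marker Zscan4c went from 1.36 and 0.41 to 82.8 and 83.7 FPKM. Markers of later embryos were low in all 4 libraries, with Nanog at 0.2 FPKM or below, Cdx2 at 0.33 or below and Gata6 at 1.17 or below. Sox17, also a marker of later embryos, went the other way. It rose from 0.06 and 0.14 to 1.41 and 1.82 FPKM (log2 fold change 3.55 ± 0.77, SE) and was called higher by the cutoffs given below.

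Of 20106 genes tested with edgeR, 2257 (11.2%) were called higher at the early 2-cell stage and 3002 (14.9%) lower, the cutoffs being 0.05 for the adjusted p, 2-fold for the change and 1 for the mean FPKM of the higher group. Among the 13353 genes that reached this FPKM, the shares were 16.9% and 22.5%. The libraries of the stages did not overlap in 2207 of the genes called higher and in 2969 of those called lower, nor in any gene named below as having risen or fallen. With 2 libraries a stage, a gene that passes these cutoffs will seldom overlap, and the share over all genes was not counted. The absence of overlap therefore adds no support to the calls. Rises were larger than falls. The median log2 fold change was 3.21 among genes called higher and -1.73 among genes called lower, and 663 genes rose 32-fold or more while 41 fell as far. Genes that fell had a median of 16.4 FPKM in zygotes and 4.47 in early 2-cell embryos. The medians of genes that rose were 0.545 and 5.86, and those of all 13353 genes 7.81 and 6.53. The FPKM cutoff applies to the higher group, so it bound the zygote level of genes that fell but not of genes that rose. Of the latter, 514 had a mean zygote FPKM below 0.1. The cutoff may thus have a part in both contrasts, of size and of starting level. Genes called lower took 23.9% and 24.4% of all counts in zygotes and 6.64% and 7.1% in early 2-cell embryos, and genes called higher took 9.51% and 9.15% against 24.4% and 23.5%. The genes that rose 32-fold or more made up only 1.66% and 1.53% of the early 2-cell counts.

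**Figure D1:**
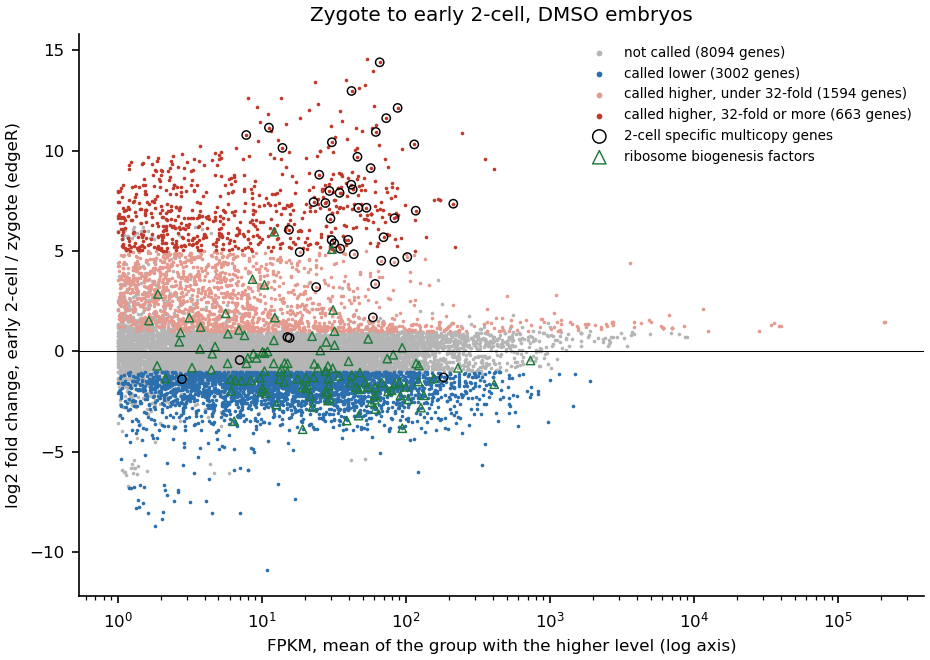
Each point is 1 of the 13353 genes that reached an FPKM of 1, with the mean FPKM of the group with the higher level on a log axis against the log2 fold change of early 2-cell over zygote from edgeR. Red points were called higher (663 of them 32-fold or more), blue points (3002) lower; circles mark 2-cell specific multicopy genes, most of them at the top, and triangles ribosome biogenesis factors, most of them below 0.

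These counts depend on what is held constant. The default normalization of edgeR (TMM) centred the expressed genes at a median log2 fold change of -0.12, and the median was -0.21 with total counts, -0.05 with the size factors of DESeq2, -0.86 with TPM (transcript shares scaled to the same sum in each library) and -1.45 when the mitochondrially encoded mRNAs were held constant. Counts of higher and lower genes were 1367 and 5349 with TPM and limma and 1270 and 8196 with mitochondrial scaling, so that calls of a fall near 2-fold and gains of the same size are relative to TMM. The label form is the other limit. Titles of the zygote libraries are written in one form and those of the early 2-cell libraries in another, and within the 4 libraries stage and label form cannot be told apart. Late 2-cell DMSO libraries exist in both forms, 2 of each, although the DMSO of those titled late2C accompanied another inhibitor given over another interval. Between the pairs, 28 genes (0.136% of 20647 tested) were higher and 245 (1.19%) lower in the libraries titled L2C, which share the zygotes' form. Of the 2257 genes called higher at the early 2-cell stage 49 were among those 245 (2.17% of the former and 20.0% of the latter), and of the 3002 called lower none was among the 28. A fit over all DMSO libraries with the label form as a term called 1999 genes higher and 2826 lower, 1835 and 2382 of them called in the same direction without the term.

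The multicopy genes of the 2-cell embryo had the highest median among the lists with at least 5 expressed members. Of 44 members tested, 39 were called higher and 2 lower, against 11.2% and 14.9% of all genes, and their median log2 fold change was 7.08. Zscan4 genes encode zinc finger proteins with a SCAN domain that are known from telomere maintenance in embryonic stem cells, and 8 of 9 genes and pseudogenes of this family on chromosome 7 were called higher. Summed over the family, the level was 16.3 and 12.5 FPKM in zygotes and 629 and 615 in early 2-cell embryos, 42.0-fold higher in counts. Folds of family sums, here and below, are ratios of summed expected counts scaled to library size with TMM. They can differ from the ratio of the FPKM sums. Zscan4f, the most abundant copy, went from 1.75 and 0.77 to 231 and 196 FPKM (log2 fold change 7.36 ± 0.16, SE, edgeR adjusted p = 7.06e-12). Zscan4e had no count in either zygote library and 58.8 and 72.7 FPKM in the early 2-cell libraries, at least 2140-fold higher against a floor of 3 counts over both zygote libraries. Zscan4-ps1 was the exception, with 11.5 and 9.31 against 11.2 and 19.9 FPKM (0.67 ± 0.23, not called).

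Tdpoz genes encode proteins with TRAF and BTB/POZ domains. Of the families summed here theirs rose by the largest ratio. Their summed level was 0.27 and 0.24 FPKM in zygotes and 159 and 144 in early 2-cell embryos, 612-fold higher, and all 5 were called. Tdpoz1 rose from 0.03 and 0.09 to 20.1 and 29.9 FPKM (8.80 ± 0.34, adjusted p = 3.26e-10). Tdpoz3 had 0.02 and 0 FPKM in zygotes, 3 counts or fewer, and 40.9 and 43 in early 2-cell embryos, a ratio of counts of 4770. The 95% counting interval from 428 to 94300 was computed with the zygote count of 0.5 raised to a whole count. It therefore belongs to a smaller ratio than the one given. Reads of Tdpoz5 could not be placed with certainty among copies, the posterior spread that RSEM gives being 0.57 of its count.

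The Usp17l genes encode deubiquitinases of the USP17 family. All 5 rose, and their sum went from 8.08 and 8.06 to 205 and 194 FPKM (26.1-fold). Usp17lc already had 4.01 and 3.99 FPKM in zygotes and reached 94.6 and 71.7 (4.47 ± 0.15, adjusted p = 1.04e-10). The Tcstv genes on chromosome 13 had the highest starting level of these families, 33.3 and 26.1 FPKM in sum, and reached 373 and 354 (10.7-fold in counts). Trim43 genes, of the tripartite motif ubiquitin ligases, rose from 0.32 and 0.4 to 37.2 and 30.3 FPKM (98.6-fold), which was still far below the late 2-cell embryos with 212 to 278. The 7 Eif1a-like genes on chromosome 12, copies related to the translation initiation factor eIF1A, rose from 3.07 and 2.11 to 523 and 506 FPKM in sum (277-fold in counts). Gm5662 among them rose from 0.07 and 0.11 to 111 and 118 (10.32 ± 0.18, adjusted p = 2.06e-12). The sums of these families did not overlap between zygote and early 2-cell libraries, which, as for single genes, adds no support. Single members could overlap, as Zscan4-ps1 did.

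Genes outside these families moved in different ways. Zfp352, a zinc finger gene, rose from 0.83 and 1.07 to 122 and 112 FPKM (7.01 ± 0.14, adjusted p = 3.13e-12). Zfp622, a zinc finger gene known from ribosome assembly and not a member of the list, was among the 12 protein-coding genes with the largest rise that the rule named, with 0.06 and 0 FPKM in zygotes and 39.9 and 32 in early 2-cell embryos, a ratio of counts of 3660 with a 95% counting interval from 656 to 145000. Duxf3, the gene of the transcription factor DUX that is known to switch on 2-cell genes, was not called, with 7.23 and 6.81 FPKM in zygotes and 5.16 and 4.92 in early 2-cell embryos (-0.43 ± 0.23, adjusted p = 0.147). Of the PRAME-like genes on the list, Pramef12 fell from 198 and 167 to 67.4 and 67.6 FPKM (-1.30 ± 0.09). Pramef17 fell from 2.58 and 3 to 0.94 and 1.06 (-1.38 ± 0.39), a call that was lost without the second zygote library (-1.27). Pramef25 rose from 0.95 and 0.42 to 29.7 and 31.3 (5.55 ± 0.28).

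Many of the strongest rises lay side by side in the genome. Of 661 genes with a position that rose 32-fold or more, 181 (27.4%) lay in 18 runs of at least 5 such genes with gaps of at most 500 kb, coordinates being GRCm38. The run at chr3:93068823-94266784 held 24 of them among 28 expressed genes, the Tdpoz genes included. The run at chr12:87480108-88305189 held 22 of 33 with the Eif1a-like copies, and Oog1, an oocyte gene on the same chromosome, was not called at 631 and 571 against 616 and 611 FPKM (named after its values were seen). The Zscan4 run at chr7:10794242-11614112 held 10 of 15, and a run of Obox pseudogenes with Obox3, Obox6 and Crxos at chr7:14694074-15967567 held 16 of 31. Copies in such runs share sequence, so the division of reads among them is less certain than the sum.

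By kind of gene, 1605 of 11133 expressed protein-coding genes (14.4%) were called higher and 2759 (24.8%) lower. Of 934 expressed pseudogenes 317 (33.9%) were higher and 99 (10.6%) lower, and of 963 long noncoding RNAs 222 (23.1%) were higher and 139 (14.4%) lower. The shares of protein-coding genes, 14.4% and 24.8%, are those against which counts of the gene lists are read below. Shares of the lists are over tested members, not all of which were expressed, for example 74 of 83 chaperones. They are therefore somewhat lower than shares over expressed members. Of 123 small nucleolar and Cajal body RNAs, 27 were higher and none lower.

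To show what the start of such genes looks like, 3 windows of 300 bases, 250 before and 50 after the annotated start, are printed from the GRCm38 genome at starts of the GENCODE annotation, 5′ to 3′ on the strand of the gene. All 3 genes rose, and capitals mark TAATCC or its reverse complement GGATTA, the core that homeodomain proteins of the OTX and CRX type are known to bind.
Zfp352: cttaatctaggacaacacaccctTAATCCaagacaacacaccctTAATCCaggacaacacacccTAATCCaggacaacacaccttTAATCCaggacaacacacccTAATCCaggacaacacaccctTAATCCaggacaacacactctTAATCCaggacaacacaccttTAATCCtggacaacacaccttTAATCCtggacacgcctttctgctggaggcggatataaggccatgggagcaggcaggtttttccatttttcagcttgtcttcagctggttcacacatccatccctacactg
Tdpoz1: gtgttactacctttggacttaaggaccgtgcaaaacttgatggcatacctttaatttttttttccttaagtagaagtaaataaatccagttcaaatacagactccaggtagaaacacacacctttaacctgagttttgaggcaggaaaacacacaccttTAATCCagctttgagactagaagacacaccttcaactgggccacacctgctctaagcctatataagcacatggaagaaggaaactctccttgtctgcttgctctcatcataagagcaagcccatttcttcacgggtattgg
Zscan4d: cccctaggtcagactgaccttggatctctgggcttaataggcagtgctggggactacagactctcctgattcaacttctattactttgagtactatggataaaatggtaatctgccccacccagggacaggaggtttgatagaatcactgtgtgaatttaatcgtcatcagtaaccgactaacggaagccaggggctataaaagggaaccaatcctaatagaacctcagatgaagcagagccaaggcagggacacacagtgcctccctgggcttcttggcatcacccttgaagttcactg
The window of Zfp352 (chr4:90218570-90218869, plus strand) holds 9 copies of TAATCC between -227 and -61 from the start, evenly spaced. The window of Tdpoz1 (chr3:93676261-93676560, minus strand) holds 1 at -91 and that of Zscan4d (chr7:11166110-11166409, minus strand) none. Their ratios of observed to expected CpG are 0.14, 0.16 and 0.17.

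Ratios as low as these were at the lower end of a wide range among the strongest rises. The ratio of observed to expected CpG had quartiles of 0.14 and 0.712 and a median of 0.40 over 364 protein-coding genes that rose 32-fold or more, and its median was 0.74 over those that rose less, 0.77 over those that fell and 0.78 over those not called. Genes of the strongest rises also had few exons, a median of 4 against 6, 9 and 10 in the other classes in that order, and 18.1% of them had a single exon against 1.52% of those that fell. Each copy of a multicopy family counted on its own in these CpG and exon figures. The letters GGATTA, searched on both strands as all 4 motifs, were in 20.6% of the 364 windows and in 6.83% of all 11120, and in 14.2% of 296 when windows that share 50% or more of their words of 12 bases were counted once. TATAAA was in 18.4% (15.5% after joining copies) against 7.84% of all windows, GGGCGG in 35.4% (43.6%) against 61.8%, and CCAAT in 47.3% (40.9%) against 39.9%. No motif of the 4 contains another. A match of letters is no evidence of a bound site.

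Open chromatin at these starts was described with the ATAC-seq peak lists of late 1-cell and early 2-cell DMSO embryos, in which both replicates were joined. Among protein-coding genes that rose 32-fold or more, 18.4% had a peak within 1 kb of a start in late 1-cell embryos and 36.8% in early 2-cell embryos. Genes that rose less had one in 43.9% and 59.1%, genes that fell in 44.2% and 52.2%, and all expressed protein-coding genes in 42.8% and 53.2%. The lists differ in length, 16283 and 42382 peaks, and short reads from copies that share sequence can be lost in mapping, a part in these shares that was not tested. Zfp352 and Tdpoz1 had a peak at the early 2-cell stage only, and Zscan4d at neither.

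**Figure D2:**
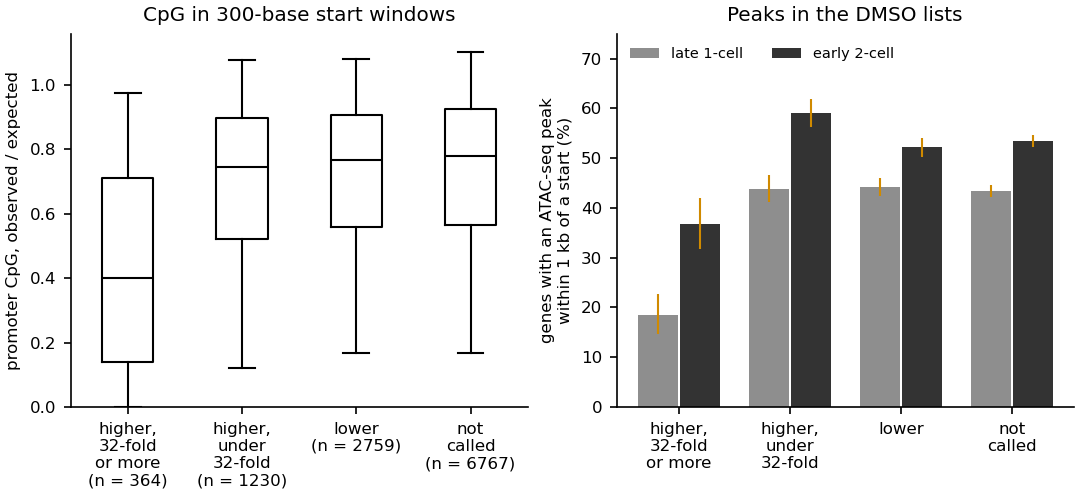
Left, ratio of observed to expected CpG in windows of 300 bases at the starts of protein-coding genes by class of change, with boxes from the lower to the upper quartile, the median as a line and whiskers from the 5th to the 95th percentile. Right, percent of genes with a peak within 1 kb of a start in late 1-cell and early 2-cell DMSO embryos with 95% binomial intervals (counting error only), lowest in genes that rose 32-fold or more.

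Transcription factors that studies have tied to genome activation moved in both directions. Of 40 tested, 12 were called higher and 4 lower, with a median log2 fold change of 0.26 that turned to -0.42 with TPM and to -1.08 with mitochondrial scaling. Among those that rose, Gabpa, the DNA-binding subunit of the ETS factor GABP, went from 0.76 and 0.34 to 31.4 and 25.9 FPKM (5.73 ± 0.22, adjusted p = 3.71e-10). Klf5, a Krüppel-like factor of the pluripotent and trophoblast lineages, went from 0.32 and 0.29 to 11.8 and 13.6 (5.61 ± 0.23). Klf4, a factor of the same family, went from 6.85 and 7.36 to 28.9 and 29.5 (2.10 ± 0.12), a call that was lost with mitochondrial scaling (0.77). Myc, which drives growth and ribosome production, stayed at a low level, from 0.09 and 0.09 to 1.69 and 2.4 FPKM (5.03 ± 0.61). Yy1, a zinc finger factor of promoters and enhancers, rose from 2.54 and 2.04 to 21.8 and 15.9 (2.38 ± 0.18). Rarg, a retinoic acid receptor, rose from 0.34 and 1 to 4.79 and 5.36 (3.79 ± 0.32). Nfya, the subunit of the CCAAT-binding factor NF-Y that sets its specificity, fell from 77 and 81.2 to 27.6 and 23.5 FPKM (-1.79 ± 0.09, adjusted p = 3.68e-09). Ets2, an ETS factor, fell from 29.3 and 26 to 5.97 and 7.91 (-2.26 ± 0.13). The nuclear receptor Nr5a2 was already present in zygotes and was not called, with 42.2 and 47.1 against 38.9 and 29.4 FPKM.

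Obox genes, homeobox genes of oocytes and early embryos on chromosome 7, changed places. Their summed FPKM hardly moved, 2390 and 2340 in zygotes and 2500 and 2480 in early 2-cell embryos, while 4 of 7 were called higher and 1 lower. As a share of the FPKM of all genes, which summed to more in early 2-cell embryos, the family was lower there. Obox3 rose from 1.63 and 0.37 to 58.5 and 47.4 FPKM (6.61 ± 0.33, adjusted p = 3.21e-09). Obox6 rose from 0.09 and 0.3 to 25.5 and 21.2 (6.99 ± 0.37). Obox2 fell from 506 and 557 to 72.5 and 77.8 FPKM (-2.70 ± 0.08, adjusted p = 4.05e-11). Obox5, an abundant maternal member, went from 854 and 785 to 1590 and 1540 (1.05 ± 0.06), a rise close to the cutoff that was not called with total counts (0.96), with the label form term (0.92), with limma on FPKM (0.93) or with TPM (0.27) and that turned to -0.28 with mitochondrial scaling. Obox1 was at 924 and 894 against 666 and 704 FPKM and was not called.

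Regulators of pluripotency and the first lineages began at low levels where they rose. Of 27 tested, 7 (25.9%) were called higher and 3 (11.1%) lower, with a median of 0.65 (-0.08 with TPM and -0.66 with mitochondrial scaling). Eomes, a T-box factor of the trophectoderm, rose from 0.18 and 0.18 to 5.7 and 4.14 FPKM (4.88 ± 0.32). Tbx3, another T-box factor, rose from 2.56 and 1.95 to 19 and 14 (3.08 ± 0.17). The 3 that fell started higher. Esrrb, an orphan nuclear receptor of pluripotent cells, fell from 13.4 and 10 to 2.46 and 4.85 FPKM (-1.30 ± 0.22). Sall4, a zinc finger factor of the same cells, fell from 115 and 97.8 to 53.9 and 47.1 (-1.04 ± 0.08). Gata3, a factor of the trophectoderm, fell from 5.12 and 4.1 to 2.45 and 1.98 (-1.06 ± 0.23). Both of the last calls lie near the cutoff, and they were lost with the size factors of DESeq2 (-0.97 for Sall4 and -0.99 for Gata3), with the label form term (-0.97 and -1.10), for Sall4 without the first early 2-cell library (-0.97) and for Gata3 without the second early 2-cell library (-0.98) or the first zygote library (-0.91). Pou5f1, the gene of OCT4, was abundant at both stages and not called, with 221 and 224 against 234 and 245 FPKM, and its sign turned with the label form term (-0.07), with TPM (-0.56) and with mitochondrial scaling (-1.16).

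Enzymes that write and erase methyl groups on histones and DNA moved in both directions. Of 52 tested, 7 (13.5%) rose and 8 (15.4%) fell, against 14.4% and 24.8% of expressed protein-coding genes. The share that rose lies near theirs and the share that fell below it. The median of 0.14 was negative with TPM (-0.57) and mitochondrial scaling (-1.20). Those that rose were nearly silent in zygotes. Prmt6, an arginine methyltransferase, went from 0.09 and 0 to 15.2 and 11.6 FPKM (8.05 ± 0.47, adjusted p = 1.43e-08). Kdm5b, a demethylase of active chromatin, rose from 0.55 and 0.57 to 30.2 and 20.9 (5.20 ± 0.18). Suv39h1, a heterochromatin methyltransferase, rose from 0.12 and 0.09 to 4.7 and 5.86 (5.72 ± 0.36). Those that fell included the machinery that copies DNA methylation after replication. Dnmt1, the maintenance methyltransferase, fell from 360 and 478 to 32.3 and 37 FPKM (-3.09 ± 0.10, adjusted p = 6.28e-11). Uhrf1, which recruits it, fell from 268 and 251 to 78.8 and 89 (-1.56 ± 0.08). Setdb1, the methyltransferase that silences retrotransposons, fell from 109 and 105 to 35.7 and 40 (-1.40 ± 0.08). Ezh2, the enzyme of the Polycomb complex, was not called, with 620 and 661 against 471 and 468 FPKM.

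Among 33 acetyltransferases, deacetylases and bromodomain genes, 1 (3.03%) rose and 9 (27.3%) fell, against 14.4% and 24.8% of expressed protein-coding genes, with a median of 0.18 whose sign turned when either early 2-cell library was left out (-0.08 and -0.05), with limma on FPKM (-0.09), with TPM (-0.74) and with mitochondrial scaling (-1.15). The riser was Hdac1, a class I deacetylase, with 3.6 and 5.67 FPKM in zygotes and 33.3 and 28.1 in early 2-cell embryos (2.74 ± 0.21, adjusted p = 2.03e-07). Crebbp, the gene of CBP, was at 198 and 217 against 298 and 315 FPKM and not called. Deacetylases of the sirtuin family were among those that fell, for example Sirt6 from 7.1 and 6.2 to 1.04 and 0.94 (-2.62 ± 0.29). The acetyltransferase Kat8 fell from 27.4 and 30.9 to 5.47 and 6.82 (-2.21 ± 0.18).

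Among maternal RNAs, falls were most frequent in the subcortical maternal complex, a protein assembly under the membrane of the egg, and other maternal-effect genes. Of 27 tested, none was called higher and 17 (63.0%) lower, with a median of -1.27. Ooep, a complex member, fell from 240 and 232 to 32.9 and 38.2 FPKM (-2.64 ± 0.09, adjusted p = 1.04e-10). Padi6, which is needed for the cytoplasmic lattices, fell from 315 and 311 to 37.9 and 42.7 (-2.86 ± 0.08). The fall of Nlrp5 came to -2.36 ± 0.08. Zar1l, an RNA-binding protein of the oocyte, fell the furthest of the list, from 235 and 258 to 13.4 and 14.3 (-4.07 ± 0.12, adjusted p = 3.29e-11). Tle6 and Khdc3, the other core members of the complex, fell as well (-2.48 ± 0.11 and -1.57 ± 0.17, named after their values were seen). The most abundant member did not fall. Zbed3, a partner of the complex, was at 5850 and 5570 FPKM in zygotes and 8850 and 9130 in early 2-cell embryos (0.75 ± 0.04, not called), and with it the summed level of the list was 15100 and 14800 against 13500 and 13700. Dppa3, which protects maternal DNA methylation, was likewise not called, with 1450 and 1400 against 1730 and 1530 FPKM. Mitochondrial scaling, which lowers every value alike, put Zbed3 at -0.58 and Dppa3 at -1.05.

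Secreted proteins of the oocyte were divided in the same way. Of 11 tested, 5 (45.5%) fell and 1 (9.09%) rose, with a median of -0.85. Zp3, which builds the zona pellucida, fell from 26.4 and 23.7 to 8.63 and 9.1 FPKM (-1.41 ± 0.18). Oosp2, an oocyte-secreted protein, fell from 205 and 184 to 28.8 and 32.8 (-2.49 ± 0.13). The fall of Gdf9 came to -1.20 ± 0.09 (adjusted p = 1.43e-07). Bmp15, the partner of GDF9, was not called at 643 and 544 against 540 and 514 FPKM (-0.08 ± 0.07, adjusted p = 0.405).

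Factors that store and degrade maternal RNA were mostly not called. Of 40 tested, 3 (7.50%) rose, 10 (25.0%) fell and 24 expressed members were not called, with a median of -0.09 beside -0.12 over all expressed genes. Btg4, which recruits the CCR4-NOT deadenylase to maternal RNA, was at 1780 and 1810 FPKM in zygotes and 2570 and 2530 in early 2-cell embryos (0.59 ± 0.06, not called). Cnot7, a catalytic subunit of that complex, was at 593 and 665 against 811 and 853 (0.51 ± 0.06, not called). With mitochondrial scaling they came to -0.74 and -0.82. Other subunits of the complex fell. Cnot3 went from 282 and 309 to 115 and 121 FPKM (-1.09 ± 0.07), a call that was lost with the label form term (-0.87). Cnot10 went from 13.5 and 15.1 to 6.97 and 4.17 (-1.56 ± 0.18). Cnot11 went from 50.6 and 39.4 to 19.2 and 20.1 (-1.5 ± 0.12). Pabpn1l, the poly(A)-binding adaptor that works with BTG4, fell from 111 and 118 to 4.6 and 5.8 (-4.37 ± 0.15, adjusted p = 1.09e-10). Falls also included genes of translational control and decapping. Cpeb1, which binds the cytoplasmic polyadenylation element, fell from 44.8 and 41.9 to 12.8 and 13.1 FPKM (-1.65 ± 0.10). The decapping factor Dcp1a fell from 197 and 209 to 56.5 and 67 (-1.32 ± 0.10). Igf2bp2, an RNA-binding protein that stabilizes messages, fell from 157 and 152 to 30.5 and 36.8 (-2.28 ± 0.08). Tut4, a terminal uridylyltransferase that marks RNA for decay, rose from 0.26 and 0.8 to 6.69 and 3.51 (3.90 ± 0.32). Tob1, another deadenylase adaptor, rose from 7.48 and 7.33 to 27.9 and 24.5 (1.92 ± 0.14), a call that was lost with mitochondrial scaling (0.58).

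Of 24 genes of meiotic arrest and metaphase II, 8 (33.3%) were lower and 2 (8.33%) higher, against 24.8% and 14.4% of expressed protein-coding genes. Aurka, a kinase of the spindle poles, fell from 131 and 126 to 24.4 and 31.5 FPKM (-2.15 ± 0.13). Plk1, a kinase of mitotic entry and the spindle, fell from 94.2 and 93.9 to 29.4 and 25.6 (-1.72 ± 0.09). Mos, the kinase that holds the egg in metaphase and one of the egg markers, fell from 8.22 and 6.06 to 1.49 and 2.62 (-1.71 ± 0.34). Ccnb1, the mitotic cyclin, was not called at 455 and 462 against 411 and 429 FPKM. Outside the lists, Gm813, a gene model on chromosome 16, fell from 331 and 345 to 5.67 and 6.86 FPKM (-5.66 ± 0.14, adjusted p = 1.17e-11). Rars, the arginyl-tRNA synthetase, fell from 57 and 60.1 to 2.85 and 2.98 (-4.24 ± 0.13). Abundant genes fell too. Slbp, whose protein binds the end of histone mRNA, went from 993 and 998 to 329 and 367 FPKM (-1.42 ± 0.07). Ssb, the La protein of RNA polymerase III transcripts, went from 894 and 1050 to 86 and 83.9 (-3.51 ± 0.09). Zfp57, which guards imprints, went from 1930 and 1840 to 651 and 645 (-1.45 ± 0.06).

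**Figure D3:**
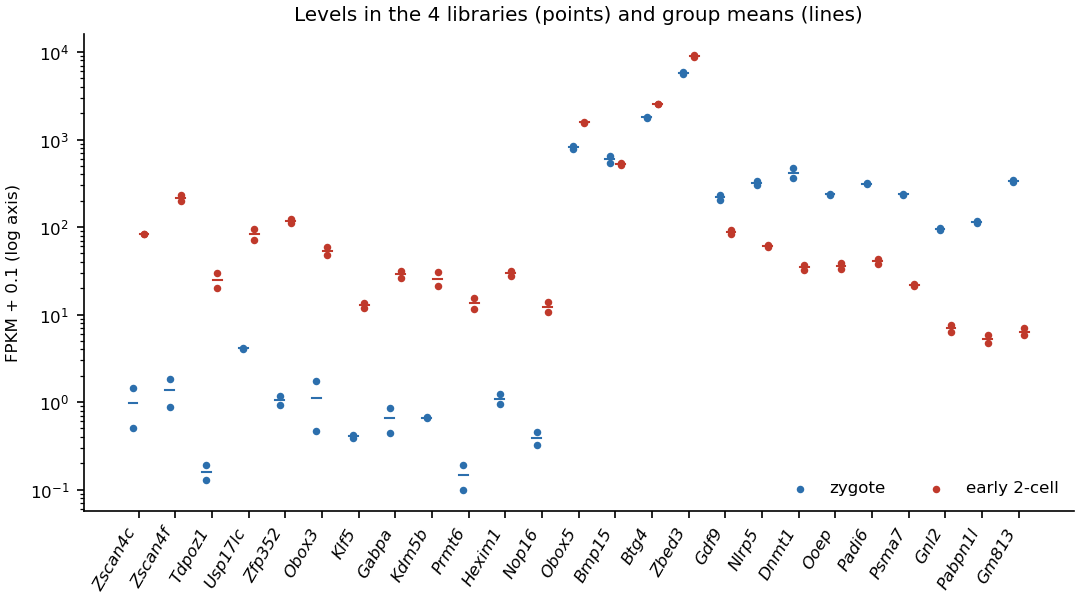
FPKM plus 0.1 on a log axis in each of the 2 zygote (blue) and 2 early 2-cell (red) libraries, with group means as lines, for 25 genes. The first 12 genes rose and the last 9 fell without overlap of the groups; of the 4 between them, Obox5 was called higher and Bmp15, Btg4 and Zbed3 were not called.

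Genes of ribosome production fell broadly. Of 118 biogenesis factors tested, 59 (50.0%) were called lower and 13 higher, against 24.8% and 14.4% of expressed protein-coding genes. The share that rose thus lies below theirs. The median was -1.03, and the summed level went from 4730 and 5230 to 2360 and 2320 FPKM. Bms1, a GTPase of the small subunit processome, fell from 332 and 377 to 13.4 and 13.7 FPKM (-4.62 ± 0.09, adjusted p = 3.13e-12). Gnl2, a GTPase of the large subunit, fell from 91.3 and 97.4 to 6.29 and 7.51 (-3.82 ± 0.13). Nop56, of the box C/D particles that methylate ribosomal RNA, fell from 126 and 141 to 23.9 and 36.2 (-2.18 ± 0.11, named after its values were seen). A few members that were almost absent from zygotes rose. Nop16 went from 0.22 and 0.35 to 13.8 and 10.6 FPKM (5.97 ± 0.42). Mak16, a large subunit assembly factor, went from 0.58 and 1.38 to 31.1 and 30.1 (5.10 ± 0.27). Nol11, of the small subunit processome, went from 0.96 and 1.18 to 9.67 and 7.55 (3.60 ± 0.26). Nucleophosmin, Npm1, was not called at 673 and 792 against 501 and 483 FPKM.

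Ribosomal protein genes did not move as a block. Of 79 tested, 26 were higher and 18 lower, with a median of 0.41 (-0.38 with TPM and -0.92 with mitochondrial scaling). Their sum was nearly level in FPKM, 3990 and 3920 against 3800 and 3550, and lower as a share of the FPKM of all genes. Rpl19 fell from 112 and 117 to 16.9 and 23.8 (-2.51 ± 0.15, adjusted p = 1.76e-08). Rps19 rose from 2.91 and 1.78 to 35.6 and 21.7 (3.34 ± 0.29). Rpsa, also known as the laminin receptor, rose from 2.93 and 2.09 to 35.7 and 24.9 (3.73 ± 0.26). Rpl13a was not called with 145 and 157 against 114 and 99.6 FPKM (-0.10 ± 0.11, adjusted p = 0.484). These genes have many processed pseudogenes, which can share their reads. Of 62 initiation and elongation factors of translation, 21 (33.9%) fell and 7 (11.3%) rose, against 24.8% and 14.4% of expressed protein-coding genes. Eif3e, a subunit of eIF3, fell from 92.4 and 86.8 to 5.54 and 6.63 FPKM (-3.77 ± 0.13). Pabpc1, the cytoplasmic poly(A)-binding protein, rose from 4.86 and 6.4 to 50 and 41 FPKM (3.17 ± 0.20).

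The proteasome had the lowest median of all lists, -1.64. Of 46 subunits and assembly factors tested, 24 (52.2%) fell and 3 rose, and their sum went from 2260 and 2410 to 1160 and 1160 FPKM. Psma7, of the outer ring, fell from 233 and 240 to 21.1 and 22.1 (-3.33 ± 0.11, adjusted p = 7.32e-11). Psmc5, an ATPase of the cap, fell from 65.7 and 75 to 4.2 and 6.31 (-3.66 ± 0.18). Psme4, the activator PA200 known from histone degradation, rose from 138 and 142 to 268 and 251 (1.02 ± 0.06). That call was lost with total counts (0.93), limma on FPKM (0.89), TPM (0.23) or without the second zygote library (0.98). The log2 fold change turned to -0.31 with mitochondrial scaling.

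Among 83 chaperones, 26 (31.3%) fell and 9 (10.8%) rose, against 24.8% and 14.4% of expressed protein-coding genes, with a median of -0.72. Hsp90aa1, the inducible HSP90, fell from 1350 and 1550 to 192 and 218 FPKM (-2.73 ± 0.08, adjusted p = 3.13e-11). Several heat shock genes went the other way. Bag3, a co-chaperone of HSP70, rose from 0.25 and 0.03 to 18.4 and 12.8 FPKM (6.85 ± 0.43). The inducible Hspa1a rose from 0.54 and 0.54 to 8.77 and 10.9 (4.28 ± 0.24). Hspa2, a related HSP70, rose from 2.32 and 3.5 to 41 and 34.1 (3.78 ± 0.19). Targets of p53 and of the integrated stress response on the fixed list were 11 (36.7%) higher and 5 (16.7%) lower of 30, with a median of 0.69 (-0.11 with TPM and -0.61 with mitochondrial scaling). Sesn2, a stress-induced inhibitor of mTORC1, rose from 1.12 and 0.99 to 18.2 and 16.3 FPKM (4.12 ± 0.17). Psat1, of serine synthesis, rose from 0.26 and 0.43 to 11.5 and 6.52 (6.23 ± 0.37). Bax, a mediator of apoptosis, fell from 8.39 and 10.1 to 1.75 and 0.98 (-2.41 ± 0.42). Mdm2, the ligase that degrades p53, was not called, with 106 and 115 against 113 and 100 FPKM.

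Within the general transcription apparatus, 27 of 104 genes (26%) fell and 10 (9.62%) rose, with a median of -0.38. The share that fell lies near the 24.8% of expressed protein-coding genes, of which 14.4% rose. Med17, of the head of Mediator, fell from 158 and 166 to 9.91 and 13.1 FPKM (-3.91 ± 0.11, adjusted p = 2.56e-11). Mnat1, of the kinase CAK, fell from 21.3 and 21.7 to 2.25 and 1.74 (-3.61 ± 0.20). Cdk9, the kinase of P-TEFb, rose from 4.72 and 6.3 to 26.2 and 26.1 FPKM (2.08 ± 0.19), a call that was lost with mitochondrial scaling (0.75). Hexim1, its inhibitor, rose from 0.85 and 1.14 to 27.3 and 31.7 (4.98 ± 0.17, adjusted p = 1.1e-10). Rn7sk, the 7SK RNA through which HEXIM1 acts, took 0.217% and 0.187% of counts in zygotes and 0.48% and 0.519% in early 2-cell embryos (1.40 ± 0.07). Its call was lost with TPM (0.67) and with mitochondrial scaling (0.08). Among spliceosome genes, 27 of 104 (26%) fell and 15 (14.4%) rose, shares near those of expressed protein-coding genes, with a median of -0.21. Prpf6, of the tri-snRNP, fell from 99.4 and 109 to 11.3 and 8.36 FPKM (-3.32 ± 0.14). Snrnp70, of the U1 particle, fell from 127 and 162 to 19.4 and 18.7 (-2.83 ± 0.13). Snrnp35, of the minor spliceosome, rose from 0.9 and 0.78 to 5.26 and 3.95 (2.55 ± 0.45).

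The respiratory chain parted by genome. Of 87 nuclear genes tested, 33 (37.9%) fell and 4 (4.60%) rose, against 24.8% and 14.4% of expressed protein-coding genes, with a median of -0.75. Sdhd, a subunit of succinate dehydrogenase, fell from 36.8 and 34.9 to 1.75 and 1.63 FPKM (-4.31 ± 0.21, adjusted p = 2.71e-09). Of 13 mRNAs encoded in the mitochondrion, 11 rose and none fell, with a median of 1.38. An example is mt-Nd4, of complex I, which rose from 1120 and 982 to 2930 and 2560 FPKM (1.48 ± 0.08, adjusted p = 5.56e-09). The mitochondrial ribosomal RNAs mt-Rnr1 and mt-Rnr2 rose by about as much (1.27 ± 0.04 and 1.25 ± 0.05), as did 7SL RNA (1.46 ± 0.06 for Rn7s2). With TPM 1 of the 13 mRNAs was called, and mt-Nd4 (0.72), mt-Rnr1 (0.52), mt-Rnr2 (0.49) and Rn7s2 (0.74) were not. With mitochondrial scaling, mt-Rnr1 and mt-Rnr2 came to -0.06 and -0.08 and Rn7s2 to 0.12. Counts of mt-Co2 and mt-Co3 could not be trusted, the posterior spread being 8.1 and 2.0 times the count. Whether these RNAs gained or the rest of the RNA lost cannot be told apart.

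With TMM, replication-dependent histone genes rose without a single fall. Of 68 tested, 44 (64.7%) were higher and none lower, with a median of 1.58, and the sum went from 6070 and 6620 to 10400 and 10300 FPKM. As a share of the FPKM of all genes, which summed to more in early 2-cell embryos, the histone sum was nearly level. The median of 1.58 is near the 1.38 of the mitochondrially encoded mRNAs. Like that of every list, it moved with TPM and with mitochondrial scaling, so the size of the rise is relative to TMM. The mRNAs of these genes end in a stem-loop in place of a poly(A) tail. Hist2h2ab rose from 0.53 and 0 to 19.3 and 16.1 FPKM (6.03 ± 0.77). The abundant Hist2h2aa1 was not called with 1760 and 1080 against 2100 and 2230. Copies of these genes are nearly identical and the share of each is uncertain. Of 51 genes of replication licensing and S phase, 19 (37.3%) fell and 6 (11.8%) rose, with a median of -0.65. Gins1, of the replicative helicase, fell from 33.5 and 34.7 to 2.35 and 3.22 FPKM (-3.68 ± 0.26). Ccne1, the cyclin of S phase entry, rose from 6.26 and 3.26 to 65.9 and 61.1 (3.99 ± 0.15, adjusted p = 2.45e-10). Host genes of small nucleolar RNAs rose in 11 of 17 cases (64.7%) and fell in 1, with a median of 2.02. Zfas1 went from 0.87 and 0.77 to 8.17 and 4.39 FPKM (2.87 ± 0.56). Dancr went from 0.35 and 0.36 to 2.89 and 3.32 (3.27 ± 0.56).

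**Figure D4:**
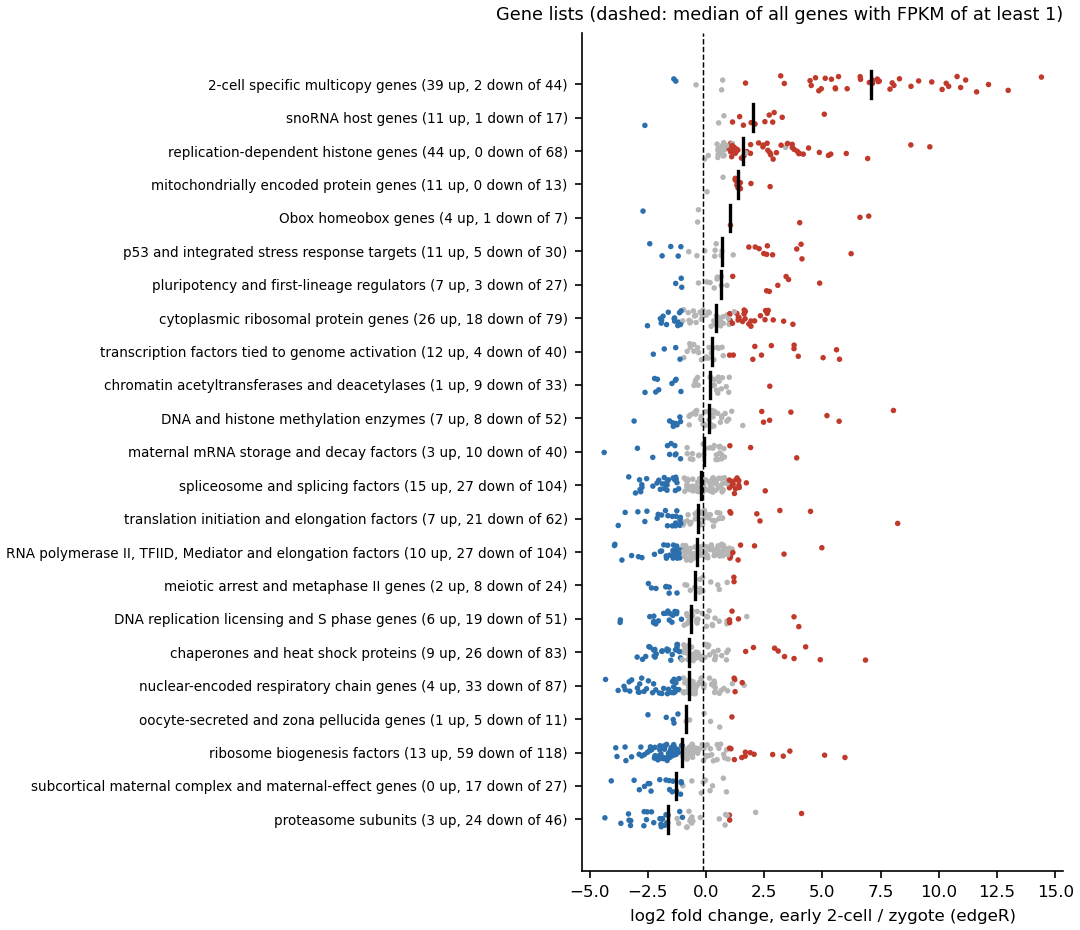
Log2 fold change of early 2-cell over zygote (edgeR, TMM) of the expressed members of each gene list with at least 5 of them, the study's own lists left out, 1 point a gene, red called higher, blue called lower and grey not called, with the list's median as a black bar; the dashed line is the median of all expressed genes, -0.12. Medians run from -1.64 for proteasome subunits to 7.08 for 2-cell specific multicopy genes.

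The levels that followed at the late 2-cell stage are set beside these values without a test. The early 2-cell libraries enter both the calls and any comparison with late 2-cell embryos, so called genes are described by their levels at each stage, with the mean of the libraries titled late2C before that of the libraries titled L2C. Biogenesis factors that had fallen were back. The median of these 59 genes was 29.5 FPKM in zygotes, 7.88 in early 2-cell embryos and then 41.8 and 37.7, and Gnl2 stood at 41.8 and 40.5. The 13 biogenesis factors that had risen went on, with medians of 1.32, 8.61 and then 41.2 and 37.4 FPKM. Ribosomal protein genes stood above the zygote level in both classes. The 18 that had fallen had medians of 82.4, 23.4 and then 117 and 118 FPKM, and the 26 that had risen of 8.41, 30.1 and then 126 and 108. The 24 proteasome genes that fell came back in part, from 41.5 over 8.76 to 23.0 and 21.9 FPKM. The 33 nuclear respiratory genes that fell stayed low, at 18.9, 3.67 and then 5.66 and 5.13 FPKM.

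Maternal-effect genes did not come back. The median of the 17 that fell was 253 FPKM in zygotes, 48.5 in early 2-cell embryos and 25.3 and 31.2 in late 2-cell embryos. Ooep was then at 10.9 and 11.4 FPKM and Dnmt1 at 41.8 and 36.7. Zbed3 and Btg4, which had not been called, were lower later. Zbed3 stood at 1600 and 1840 FPKM and Btg4 at 767 and 856. The multicopy 2-cell genes were highest in early 2-cell embryos on balance, the 39 that rose having medians of 0.195, 42.7 and then 16.8 and 24 FPKM. Sums of the Zscan4 family were between 130 and 182 FPKM in the 4 late 2-cell libraries, below 629 and 615 in early 2-cell embryos. Trim43 genes went the other way, with sums of 212 to 278 against 37.2 and 30.3 FPKM. The 12 transcription factors that rose had medians of 0.762, 9.36 and then 23.7 and 22.4 FPKM, and Gabpa reached 214 and 205. The 7 methylation enzymes that rose had medians of 0.56, 13.4 and then 59.6 and 71.8 FPKM, and Kdm5b reached 140 and 127.

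**Figure D5:**
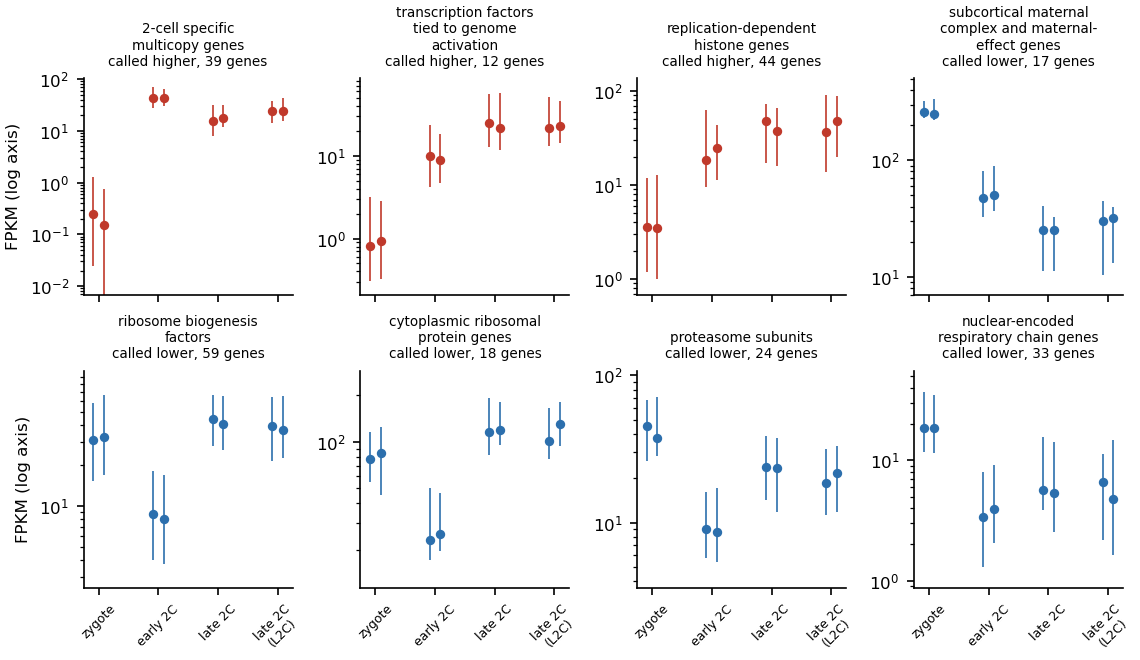
Median FPKM with lower and upper quartile, on log axes that differ between panels, over the called members of 8 lists in each of the 8 DMSO libraries, 2 each of zygote, early 2-cell, late 2-cell and late 2-cell titled L2C. Biogenesis and ribosomal protein genes that fell at the early 2-cell stage are back at or above the zygote level in late 2-cell libraries, whereas maternal-effect genes are lower still.

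The study's own list of early 2-cell minor ZGA genes, defined by it from embryos in which transcription was blocked, moved almost as a whole. Of 558 tested members 487 (87.3%) were higher and 6 lower, with a median of 5.14 (5.12 with genes that had no count in zygotes at their bound). On its shorter list for zygotes 15 of 29 were higher and 2 lower. Whether libraries used here also entered the choice of these lists is not given in the sources used here, so that they are not independent evidence of direction.

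RNA of other cells was low in all libraries. Of 15 cumulus cell markers 11 were tested and 1, Cyp19a1, the aromatase gene, was called lower. The sum of that list was 6.27 and 6.77 FPKM in zygotes and 3.45 and 5.07 in early 2-cell embryos, with Amh and Inha at 0 throughout. The 8 fibroblast markers summed to 0.98 to 2.25 FPKM, none was called, and Col1a2, Col3a1 and Lum were at 0. Of 8 erythroid and leukocyte markers, which summed to 0.12 and 0 FPKM in zygotes and 5 and 1.76 in early 2-cell embryos, 2 were tested and 1 was called, the globin gene Hba-a1 with 0.06 and 0 against 3.48 and 0.91, while Ptprc and the adult beta globins were at 0. The 12 sperm markers summed to 19.1 and 22.1 FPKM in zygotes and 8.66 and 9.38 in early 2-cell embryos. Most of this was Prm2, a protamine, which fell from 15 and 18.8 to 5.59 and 6.52 (-1.39 ± 0.32, adjusted p = 0.00255), with Prm1, Tnp2, Akap4 and Smcp at 0. The part of any of these in the changes described was not tested.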

How the data were processed

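Total RNA libraries were read from 2 zygote and 2 early 2-cell DMSO samples, with 4 late 2-cell DMSO samples beside them. Per the labels and the study's methods, the authors made the libraries with a SMART-Seq Stranded kit, trimmed reads with Trimmomatic 0.39, aligned them to GRCm38 with STAR 2.7.8a and estimated expression with RSEM 1.3.1. The deposited tables hold expected counts, in which RSEM divides a read among genes, FPKM and TPM per gene, and effective lengths with the posterior standard deviation of the expected count. The deposited ATAC-seq peak lists, 1 per stage from both replicates, hold positions, fold enrichment and −log10 p values from the authors' peak caller; here only positions were used.

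Expected counts were rounded and tested with edgeR 4.0.16 (R 4.3.3; quasi-likelihood test, TMM, Benjamini-Hochberg adjustment) over 20106 genes with at least 10 counts over the 4 libraries. The study's own comparisons used DESeq2 1.32.0. Where a group had no count, a fold is a lower bound against a floor of 3 counts over both libraries. With more than 0 and up to 3 counts, the ratio is given with a 95% interval. For the interval, but not for the ratio, counts were rounded to whole numbers of at least 1. These intervals and floors cover counting error only. Of 55385 genes per table, 55144 had a GENCODE M21 annotation. On simulated data for this comparison, 196 of 200 changed genes were called among 204 calls over 20106 genes. Far fewer genes were changed there than were called in the data, and in both directions. The simulation therefore cannot test the scaling on which the calls depend. Same-numbered replicates of the groups did not deviate together (correlation -0.025), and replicates differed by more than sampling noise (chi-square per gene 11.6 and 11.8).

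Named genes were, among calls without overlap of the groups and from 10 FPKM in the higher group, the 12 protein-coding and 4 other genes of each direction with the largest change; the 8 called genes of each direction with the highest FPKM; the 4 called members of each direction and the 2 most abundant uncalled members of each gene list; all members of 4 lists; and stage markers. Members and gene lists were chosen with earlier results of these data known. Alternatives were DESeq2 1.42.0, other scalings, no count filter, other cutoffs, all RNA libraries in 1 fit, a term for the label form, a replicate block, limma 3.58.1 on log2(FPKM + 0.1), each library left out, and limma on log2(TPM + 0.1), the last chosen after seeing the data. Inhibitor-treated libraries and their peaks were not used here except in the fit over all RNA libraries.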

Additional observations from a re-analysis of the deposited data

How the results depend on the processing

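The count of genes higher at the early 2-cell stage was 2257 and the count of lower genes 3002. Scaling moved them to 1367 and 5349 with limma on log2(TPM + 0.1) and to 1270 and 8196 when libraries were scaled to the mitochondrially encoded mRNAs. A mean FPKM of at least 5 left 1232 higher genes, and a fold of at least 4 with an adjusted p under 0.01 left 1392 and 1009. Leaving out 1 library gave 2041 to 2262 higher and 2732 to 3123 lower genes. Under the replicate block, although same-numbered libraries share only a number, 2237 were higher and 3055 lower. Total counts, the size factors of DESeq2, DESeq2 itself, no count filter, no FPKM cutoff, limma on FPKM, the fit of all 16 RNA libraries and the label form term kept both counts within 1.5 times. With mitochondrial scaling the log2 fold change of genes called in either fit turned to -0.28 for Obox5, -0.31 for Psme4, -1.05 for Dppa3, -1.16 for Pou5f1, -1.25 for Oog1, -1.27 for mt-Co2, -0.06 for mt-Rnr1 and -0.08 for mt-Rnr2. The scaling itself lowers every value by the same amount. Calls of Prm2 and mt-Co3 were lost with the label form term (-1.73 and 1.79), Prm2 also in the fit of all RNA libraries (-1.37) and mt-Co3 without the second early 2-cell library (0.22), Pramef17 without the second zygote library (-1.27) and Cyp19a1, Obox5, Cnot3, Sall4 and Gata3 with the label form term (-0.98, 0.92, -0.87, -0.97 and -1.10). Group sizes of 2 limit the precision of every fold change.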

Other observations

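Zygotic RNA of the sex chromosomes could be seen by cleavage. Eif2s3y, a Y-linked copy of a translation initiation factor gene, had no count in either zygote library and 1.45 and 1.18 FPKM in the early 2-cell libraries, at least 29.6-fold higher against a floor of 3 counts over both zygote libraries, and 9.19 and 8.14 FPKM as means of the late 2-cell groups. Uty, another Y-linked gene, was listed at 0 in zygotes and stood at 0.57 and 1.51 FPKM in early 2-cell embryos (at least 24.7-fold higher). Xist, the RNA that coats the X chromosome, was at 0.1 and 0.21 FPKM in early 2-cell embryos, under the FPKM cutoff, after no count in zygotes. Uty and Xist were named after their values were seen, and the sex of the embryos in a library is not given.

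Some genes peaked in early 2-cell embryos outside the multicopy families. Ccnd1, a D-type cyclin, rose from 0.17 and 0.67 to 3.69 and 6.53 FPKM and was at 1.31 and 2.22 in the late 2-cell groups. Hmox1, the heme oxygenase induced by oxidative stress, rose from 0.31 and 0.28 to 4.03 and 4.32 FPKM and was at 1.31 and 1.65. Other genes only began to rise. Pramel7, a PRAME-like gene of the preimplantation embryo, went from 0.25 and 0.14 to 13.7 and 17.2 FPKM and on to 144 and 135, and Obox8 from 0.03 and 0.85 to 6.23 and 7.37 and on to 87.1 and 81.1. The levels at the late 2-cell stage carry no test.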
